A study of Mus musculus with 191 samples.

Results

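The genes described here take up, carry, store and export iron. They are 9 of the 21205 genes listed in the 5 tissue tables of a mouse RNA sequencing series, and they were chosen by name, as Tfrc, Trf, Slc11a2, Cybrd1, Fth1, Ftl1, Slc40a1, Hamp and Hfe. All 9 had a row in gut, liver and lung, and 8 had one in bone marrow and skin, where Hamp was not listed. A mean signal of at least 1 over a tissue's libraries was needed for a test, which left 8 of the 9 genes in bone marrow, gut, liver and skin and 9 in lung.

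The design sets tissues of mice treated against neutrophils beside tissues of control mice around the day. In bone marrow, gut, liver and lung, C57BL/6 WT mice received anti-Ly6G (1A8), an antibody against a surface protein of neutrophils, or IgG, at 3 µg per g for 2 days before collection on the third day. There were 18 libraries per antibody in each tissue, from 3 mice at ZT 1, 5, 9, 13, 17 and 21, where ZT (Zeitgeber time) counts hours from lights on. Ear skin came from 16 mice labelled control (C57BL/6 WT given diphtheria toxin, DT), 16 Mrp8CRE; iDTR mice and 15 Mrp8CRE Bmal1-flox mice, 1 mouse per ZT and genotype at 16 times between ZT 1 and 24. DT was given at 10 µg per kg for 2 days to the iDTR mice, in which a DT receptor is switched on by Mrp8CRE, a recombinase driven by a promoter of the neutrophil lineage. The Bmal1-flox mice carry floxed Arntl (the gene of the clock activator BMAL1) with the same recombinase, lack ZT 16, and have no DT in their labels. A light schedule shifted by 12 h was used for an unnamed subset of the animals, so light schedule and ZT cannot be told apart.

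Iron circulates bound to transferrin (Trf), which cells take in through the transferrin receptor (Tfrc). Inside the endosome and at the gut surface, ferrous iron crosses the membrane through DMT1 (Slc11a2), after reduction by enzymes such as CYBRD1. Ferritin, a shell of heavy (Fth1) and light (Ftl1) chains, stores what is not used, and ferroportin (Slc40a1) is the exporter. Hepcidin (Hamp), a liver hormone, binds ferroportin and sends it for degradation, and HFE is one of the proteins upstream of hepcidin. Much of this control acts on translation and messenger stability, which messenger levels show only in part. Iron regulatory proteins bind a hairpin, the iron-responsive element: in a 5′UTR it blocks translation when iron is low, and in the 3′UTR of Tfrc it protects the messenger.

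The elements were searched in the coding transcripts of GRCm38 (GENCODE M21), because they are the shared sequence by which these messengers sense iron. The pattern was a bulged C, a stem of 5 base pairs (G-T pairs allowed) and a loop of CAGTG followed by A, C or T. It was held by 4 of the 9 genes: Tfrc 4 times in its 3′UTR on chromosome 16 (plus strand), and Slc40a1 (chromosome 1, minus strand), Fth1 (chromosome 19, plus strand) and Ftl1 (chromosome 7, minus strand) once each in the 5′UTR. Of 21901 coding genes, 222 (1.01%) held a match in a transcript. Each site is printed 5′ to 3′, with the loop in capitals and its GRCm38 position:
Tfrc, 3′UTR, chr16:32631219-32631247: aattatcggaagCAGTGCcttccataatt
Tfrc, 3′UTR, chr16:32631598-32631626: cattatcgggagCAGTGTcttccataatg
Tfrc, 3′UTR, chr16:32631663-32631691: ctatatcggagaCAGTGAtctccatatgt
Tfrc, 3′UTR, chr16:32631710-32631738: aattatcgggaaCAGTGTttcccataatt
Slc40a1, 5′UTR, chr1:45925465-45925493: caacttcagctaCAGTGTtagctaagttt
Fth1, 5′UTR, chr19:9982732-9982760: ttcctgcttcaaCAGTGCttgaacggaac
Ftl1, 5′UTR, chr7:45459779-45459807: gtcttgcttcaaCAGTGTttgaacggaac
A match is a description of sequence, and no match in the other 5 genes says only that this pattern was not found in their annotated coding transcripts. Tfrc carried its sites in 1 of 3 annotated coding transcripts, Slc40a1 in 1 of 4, Fth1 in 4 of 5 and Ftl1 in 1 of 2.

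Values below are the deposited normalized signal, on a linear scale with 1 table per tissue, and the libraries held between 7.68 M and 30.9 M recovered reads (M, mega). Differences are log2 of the signal plus 1, with their SE, from limma, and adjusted p-values are Benjamini-Hochberg values over all genes of the tissue. Some libraries stand apart or go against their labels. In lung, the labelled times put the peak of Arntl at 16.7 ± 0.39 (SE) h in IgG and 13.5 ± 0.41 h in anti-Ly6G, against 21.0 ± 0.40 h and 20.2 ± 0.40 h in liver, so lung results are given by the labels and again by title number. In skin, Gt(ROSA)26Sor, the locus that carries the iDTR insertion, was at 0.870 ± 0.401 (SD, n = 16) in libraries labelled control, 0.655 ± 0.319 (n = 16) in iDTR and 26.2 ± 2.44 (n = 15) in Bmal1-flox, so the control label is in doubt and every skin difference is one from libraries labelled control. In gut, anti-Ly6G replicate 1 held seminal vesicle RNA (Svs5 at 12477, median of all gut libraries 0.256) and anti-Ly6G replicate 6 held pancreatic RNA (Prss2 at 85.9, median 0.0377). The calls that replicates 1 and 6 change, for Fth1 and Tfrc, are given with and without them. Lower excesses were seen in other gut libraries, which were kept. Svs5 was at 25.4 in anti-Ly6G replicate 2 and 12.0 in IgG replicate 12, and Prss2 at 8.29 in anti-Ly6G replicate 11. Pbsn, searched with them, was highest in anti-Ly6G replicate 1 (357), and was at 40.1 in IgG replicate 10 and 17.7 in IgG replicate 13 (median 0.0377). Of 6 enterocyte markers, 4 had a row in gut, with medians over all libraries of 681 for Vil1, 33.1 for Fabp2, 2.02 for Alpi and 0.152 for Fabp1, and Car1 (median 912) and Car4 (1378), which the large intestine also makes, were high.

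Each gene had its own order of tissues, given here as lowest, median and highest over all libraries of a tissue. The tables were normalized separately, so these levels are a description without a test. Tfrc was at 633, 944 and 1207 in bone marrow, the tissue that makes red cells, against 95.05, 142 and 230 in gut, 82.3, 109 and 171 in skin, 61.7, 95.9 and 149 in lung and 11.8, 32.5 and 73.7 in liver. The bone marrow range did not overlap any other, and gut, skin and lung overlapped one another. Trf stood apart in liver, its main source, at 11367, 13691 and 16878, and was at 446, 525 and 612 in lung, 179, 339 and 711 in skin, 175, 225 and 249 in bone marrow and 41.1, 65.9 and 105 in gut. Slc11a2 had medians of 79.8 in bone marrow, 59.1 in skin, 56.6 in gut, 56.4 in lung and 37.7 in liver. The ranges of neighbouring tissues overlapped, but the lowest bone marrow library (60.9) lay above the highest liver library (50.9). Cybrd1, the ferric reductase, was at 14.1, 20.2 and 26.03 in lung and at most 4.92 in any other library.

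The ferritin chains ranked differently. Fth1 had medians of 1713 in lung, 1498 in gut, 966 in liver, 857 in bone marrow and 807 in skin, and the lung and gut ranges (1410 to 2002 and 1159 to 1890) lay above the bone marrow range (646 to 1063). Ftl1 had medians of 2418 in liver, 1869 in bone marrow, 1589 in lung, 1083 in gut and 451 in skin, and no skin library (highest 578) reached the lowest gut library (841). Of the 50-base stretches of the Ftl1 transcript, 78.9% occur in other annotated genes, chiefly the pseudogene Ftl1-ps1, whose own highest value in any tissue was 2.82, so the split between them is uncertain. The same holds for Trf, with 79.8% shared with the read-through gene Gm20425 (highest value in any table that lists it 27.1). Slc40a1 had medians of 368 in bone marrow and 341 in gut, whose ranges overlapped, then 153 in liver, 50.3 in skin and 10.65 in lung.

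Hamp was high only in liver among the tables that list it, at 189, 544 and 1073, against 0.855, 4.36 and 9.00 in lung and 0.0259, 0.146 and 1.30 in gut. Its neighbour copy Hamp2, which shares 16.6% of the 50-base stretches of Hamp, was at 15.35, 32.9 and 122 in liver. Hfe was at 35.2, 44.3 and 54.5 in lung, 31.6, 39.6 and 45.9 in liver, 18.0, 20.8 and 25.016 in bone marrow, 14.1, 20.6 and 28.1 in skin and 9.63, 13.3 and 16.2 in gut.

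**Figure D1:**
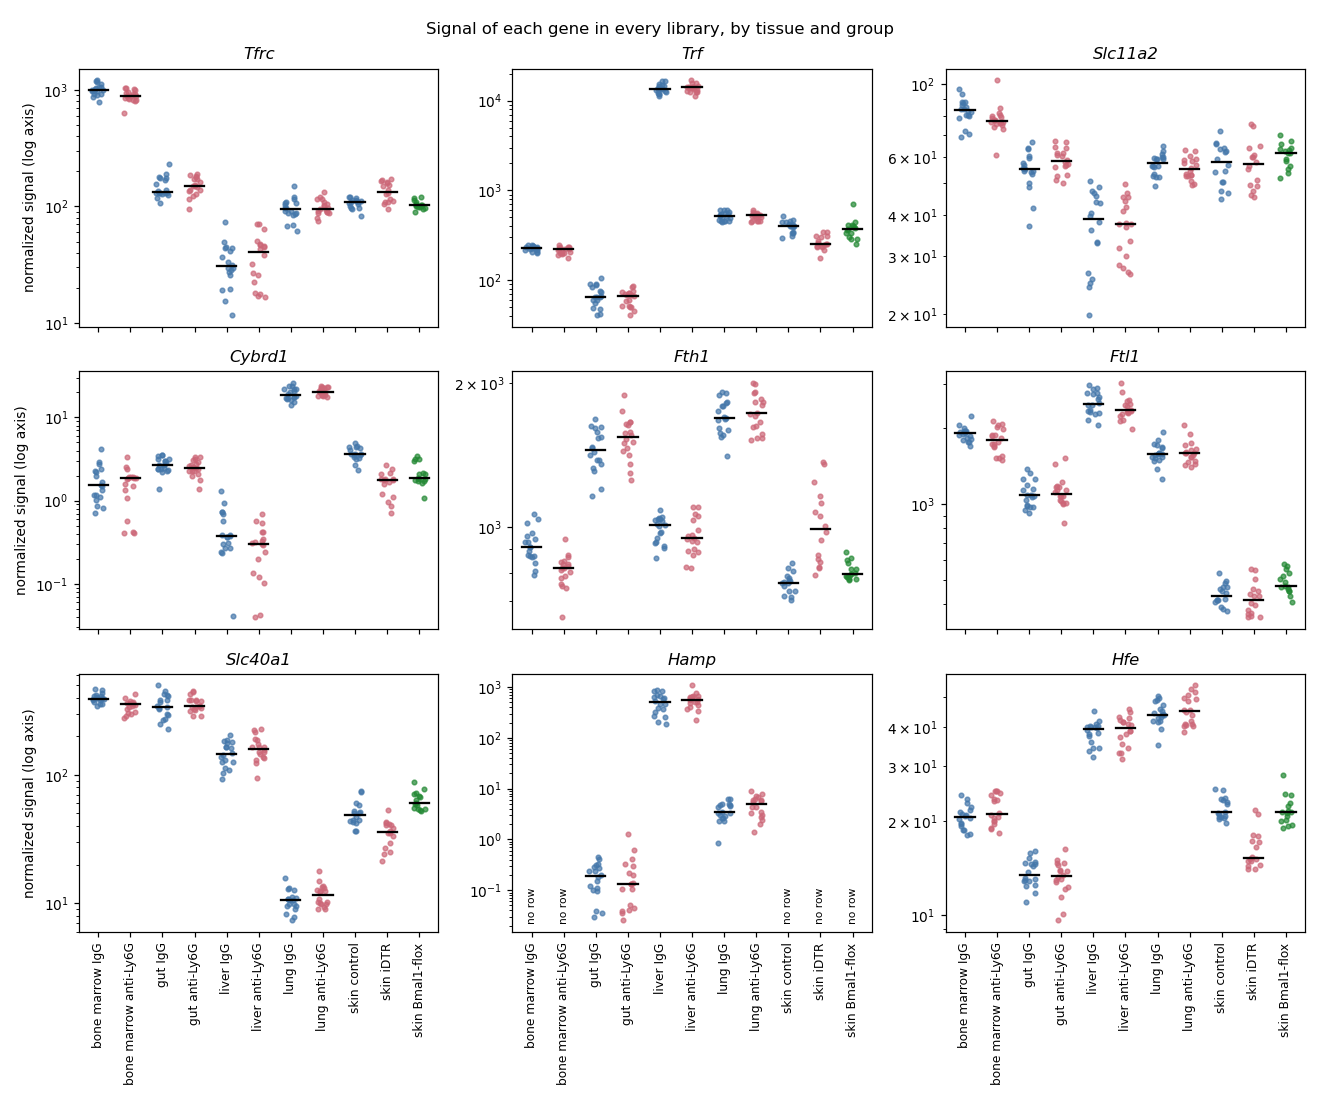
Normalized signal (log axis) of each of the 9 genes in every library, by tissue and group (points), with the group median as a black line. Blue points are IgG or skin labelled control, red points anti-Ly6G or iDTR and green points Bmal1-flox, and "no row" marks tables without the gene. Tfrc peaks in bone marrow, Trf and Hamp in liver and Cybrd1 in lung.

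In bone marrow, the receptor, a ferritin chain and the exporter were all lower with anti-Ly6G. Tfrc fell by 0.18 ± 0.053 (log2 ± SE, adjusted p = 0.0172 in limma), Fth1 by 0.17 ± 0.035 (adjusted p = 7.02e-04) and Slc40a1 by 0.21 ± 0.044 (adjusted p = 0.00107). These 3 of the 8 genes tested compare with 17.1% of all genes called in this comparison and 7.16% called lower. No gene of the 9 rose past the threshold, and the median difference of the 8 was -0.088, against -0.004 over all genes.

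Tfrc had a lowest, median and highest value of 793, 1000 and 1207 in IgG and 633, 890 and 1034 in anti-Ly6G. The groups overlapped widely, the mean was lower with anti-Ly6G at 6 of 6 ZT, and 16 of 18 libraries lay below the IgG mean of their ZT. Means were 1010 ± 111 (SD, n = 18) and 893 ± 99.6 (n = 18). Fth1 was at 793, 908 and 1063 in IgG and 646, 821 and 942 in anti-Ly6G, lower at 5 of 6 ZT and in 15 of 18 libraries. At ZT 9 its IgG mean (815 ± 24.7, SD, n = 3) was no higher than the anti-Ly6G mean (821 ± 54.1, n = 3). Slc40a1 was at 345, 393 and 465 in IgG and 279, 354 and 423 in anti-Ly6G, lower at 5 of 6 ZT and in 15 of 18 libraries, with the exception at ZT 5 (373 and 377).

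The others did not pass: Trf differed by -0.07 (adjusted p = 0.0603 in limma, 95% interval -0.12 to -0.02), Ftl1 by -0.09 (0.136), Slc11a2 by -0.08 (0.166), Hfe by 0.07 (0.243) and the low gene Cybrd1 by -0.09 (0.713). Trf crossed the threshold with quantile normalization (adjusted p = 0.0488 in limma), without ZT 5 (0.0109), and without any 1 of IgG replicates 6 and 9 and anti-Ly6G replicates 6, 9, 12 and 15 (0.0252 to 0.0495). Ftl1 crossed it without ZT 5 (0.0317) and Hfe without ZT 9 (0.0473). Tfrc missed it without ZT 1 (0.0653) or ZT 21 (0.0633).

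Markers of red cell precursors, cells known for high Tfrc, also fell. Of 14 erythroid genes tested, 9 fell and none rose (median -0.20), and their summed signal ran from 93704 to 138711 in IgG and from 54664 to 132155 in anti-Ly6G. Of 14 macrophage genes, 3 (21.4%) fell and none rose (median -0.08), with sums of 981 to 1289 and 925 to 1224. Over all genes 17.1% were called and 7.16% called lower. Of 14 neutrophil genes, 6 rose and 1 fell (median 0.15), with sums of 24307 to 35280 and 27241 to 48705, and Ly6g, the antibody's target, had means of 104 ± 10.58 and 118 ± 18.6 (SD, n = 18 each). The part of these cell types in the fall of Tfrc, Fth1 and Slc40a1 was not tested, and in bulk tissue fewer cells of a type and less RNA per cell cannot be told apart.

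The rest of the iron pathway moved in both directions. Of 37 pathway genes tested, 6 rose and 4 fell, beside 17.1% of all genes called and 7.16% called lower. The rises included the haemoglobin binder Hp (0.34 ± 0.059, from 490 to 625), the siderophore binder Lcn2 (0.32 ± 0.054, from 1473 to 1858), lactoferrin Ltf (0.27 ± 0.052, from 3749 to 4550), the hypoxia factor Epas1 (0.28 ± 0.047) and the BMP target Id1 (0.24 ± 0.076). Hp, Lcn2, Epas1 and Ltf were higher in 18 of 18 libraries. Lcn2 and Ltf are also products of neutrophil precursors, and Ltf is in both lists. Haem oxygenase Hmox1, which frees iron from haem, fell by 0.25 ± 0.085 (adjusted p = 0.036 in limma), in 12 of 18 libraries. The other falls were those of Abcg2 (by 0.23), Slc39a8 (by 0.16) and Steap3 (by 0.15), and the sixth rise was that of Lrp1 (0.14), all 4 outside the rule of the 6 largest and named after their values were seen.

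No gene of the 9 was rhythmic in bone marrow under either antibody (0 of 8 by limma's F test of a 24 h wave; 1 of 8 in each group at an unadjusted p under 0.05, and none passed with voom weights). Over all genes 1.62% were rhythmic in IgG and 0.406% in anti-Ly6G, and 0.00700% differed in rhythm between the antibodies. The adjusted p-values of the 9 genes were all at least 0.282 in IgG and 0.341 in anti-Ly6G. With ZT as a factor in place of the wave, Ftl1 (adjusted p = 0.0281 in limma) and Trf (0.0356) varied with ZT in anti-Ly6G, and Ftl1 also passed the wave without ZT 1 (0.0264). Of the pathway list, the haemoglobin scavenger receptor Cd163 (peak 17.6 ± 0.75 h, SE) and the iron chaperone Pcbp1 (19.8 ± 0.90 h) were rhythmic in IgG, and none of 37 in anti-Ly6G.

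**Figure D2:**
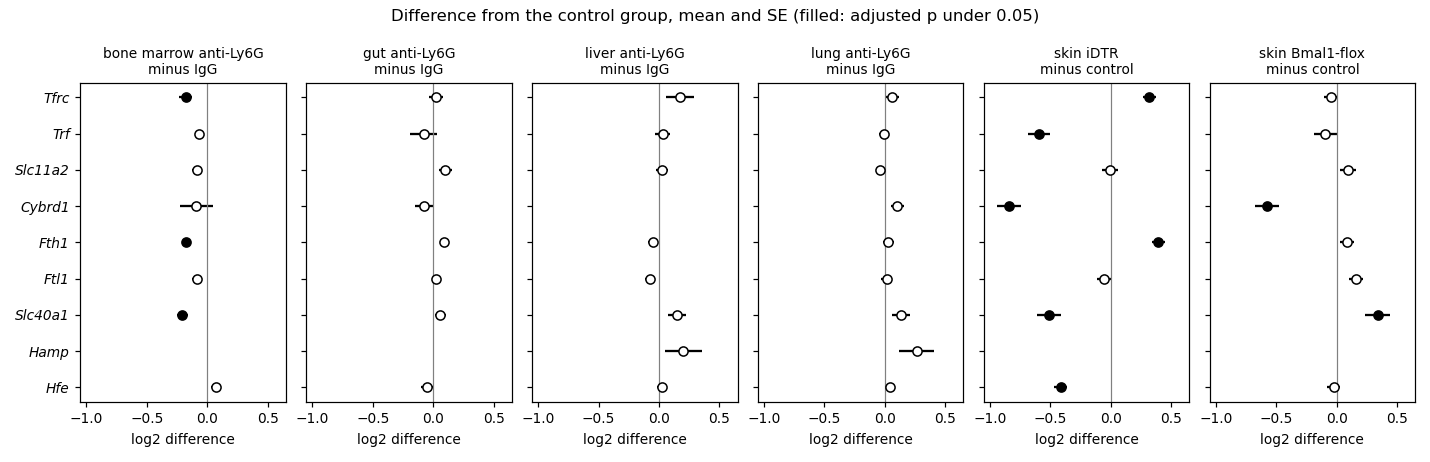
Log2 difference of each gene from its control group (point) with its SE (bar), in 6 comparisons; filled points have an adjusted p under 0.05. Lung is drawn by its labels. Filled points are seen in bone marrow (3, all lower), iDTR skin (6) and Bmal1-flox skin (2), and none in gut, liver or lung.

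In gut, the ferritin chains peaked in the early night and ferroportin peaked in the day, under both antibodies. In IgG, Ftl1 peaked at 13.6 ± 0.67 h (SE) with a peak-to-trough fold of 1.33 (adjusted p = 1.79e-04 in limma), Fth1 at 13.8 ± 0.97 h with a fold of 1.24 (0.00847) and Slc40a1 at 7.76 ± 0.55 h with a fold of 1.61 (1.40e-05). In anti-Ly6G the peaks were at 14.02 ± 0.64 h for Ftl1 (fold 1.34, adjusted p = 1.31e-04), 14.4 ± 1.18 h for Fth1 (fold 1.19, 0.0439) and 6.37 ± 0.86 h for Slc40a1 (fold 1.36, 0.00395). These are 3 of 8 genes in each group, beside 33.6% of all genes rhythmic in IgG and 24.6% in anti-Ly6G, so the share was near the background.

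Ftl1 in IgG rose from 947 ± 27.6 (SD, n = 3) at ZT 5 to 1320 ± 62.5 (n = 3) at ZT 13 and was back at 1001 ± 31.4 at ZT 1. In anti-Ly6G it went from 960 ± 104 at ZT 1 to 1392 ± 155 at ZT 13. The 3 values at ZT 13 (1255 to 1380 in IgG) lay above all 3 at ZT 5 (917 to 972). Fth1 went from 1246 ± 117 at ZT 1 to 1616 ± 68.8 at ZT 13 in IgG and from 1302 ± 49.3 to 1706 ± 166 in anti-Ly6G. Slc40a1 fell from 445 ± 44.6 at ZT 9 to 249 ± 22.4 at ZT 17 in IgG, and from 418 ± 32.5 at ZT 5 to 304 ± 30.2 at ZT 17 in anti-Ly6G. The ferritin chains were also past their highest mean by ZT 17, at 1142 ± 48.3 for Ftl1 and 1481 ± 134 for Fth1 in IgG.

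The Fth1 rhythm is the least secure of the 3. Without anti-Ly6G replicates 1 and 6 together its adjusted p in anti-Ly6G was 0.296 in limma. With quantile normalization it was 0.394 there and 0.59 in IgG. With voom weights it was 0.0707 in anti-Ly6G. It was also lost in IgG without ZT 1 (0.133) or ZT 13 (0.091), and in anti-Ly6G without ZT 1, 5, 9 or 13 (0.0537 to 0.483) or any 1 of replicates 1, 2, 3, 5, 6, 8, 13 and 17 (0.0537 to 0.134). Ftl1 and Slc40a1 stayed past the threshold without anti-Ly6G replicates 1 and 6 together and with quantile normalization, though Slc40a1 in anti-Ly6G was lost without ZT 5 (0.0638). Tfrc had its highest mean at ZT 13 in both groups, 198 ± 29.05 in IgG and 185 ± 3.79 in anti-Ly6G, against 120 ± 10.99 and 123 ± 28.6 at ZT 21, and just missed the wave test (adjusted p = 0.0503 and 0.0891). With ZT as a factor it passed in both (0.00645 and 0.0336). As a wave it passed in IgG without anti-Ly6G replicates 1 and 6 together (0.0424), and in both groups without ZT 9 (0.00312 and 0.0114) or without anti-Ly6G replicate 1 (0.043 and 0.0473) or 18 (0.0467 and 0.0478). In IgG it also passed with a filter at a mean of 4 (0.0441), without ZT 1 (0.0381), and without any 1 of IgG replicates 1, 16 and 17 and anti-Ly6G replicates 6, 7, 11, 12 and 17 (0.0176 to 0.0496).

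Trf, Slc11a2, Cybrd1 and Hfe were not called rhythmic in gut (in IgG, Hfe passed without ZT 21, at 0.0226, and Slc11a2 without IgG replicate 18, at 0.0484), and Hamp was under the level needed for a test. No gene of the 9 differed in rhythm between the antibodies (0 of 8; 0 over all genes as well), the nearest being Slc40a1 (amplitude lower by 0.12 on the log2 scale with anti-Ly6G, p = 0.0968 before and 0.811 after adjustment in limma). For mean level, 0 of 8 passed in limma (1 at an unadjusted p under 0.05, and 0 passed with voom weights), beside 0.0132% of all genes. The smallest adjusted p was that of Fth1 (0.237), at 1449 ± 149 in IgG and 1538 ± 158 in anti-Ly6G (SD, n = 18 each), higher in 14 of 18 libraries. The 95% interval of its difference ran from 0.025 to 0.148, and that of Slc11a2 from -0.003 to 0.205.

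In the gut pathway list, 10 of 36 genes were rhythmic in IgG and 12 of 36 in anti-Ly6G, beside 33.6% and 24.6% of all genes. In level, 0 of 36 changed. The 4 smallest p-values in IgG belonged to Epas1, which drives iron absorption genes (peak 5.11 ± 0.64 h, SE), Pcbp1 (16.4 ± 0.66 h), the ferritin-degradation adaptor Ncoa4 (14.2 ± 0.69 h) and the ferric reductase Steap3 (18.6 ± 0.77 h). In anti-Ly6G they belonged to Neo1 (5.16 ± 0.78 h), Lrp1 (13.6 ± 0.82 h), Pcbp1 (16.5 ± 0.88 h) and Epas1 (3.42 ± 0.89 h).

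**Figure D3:**
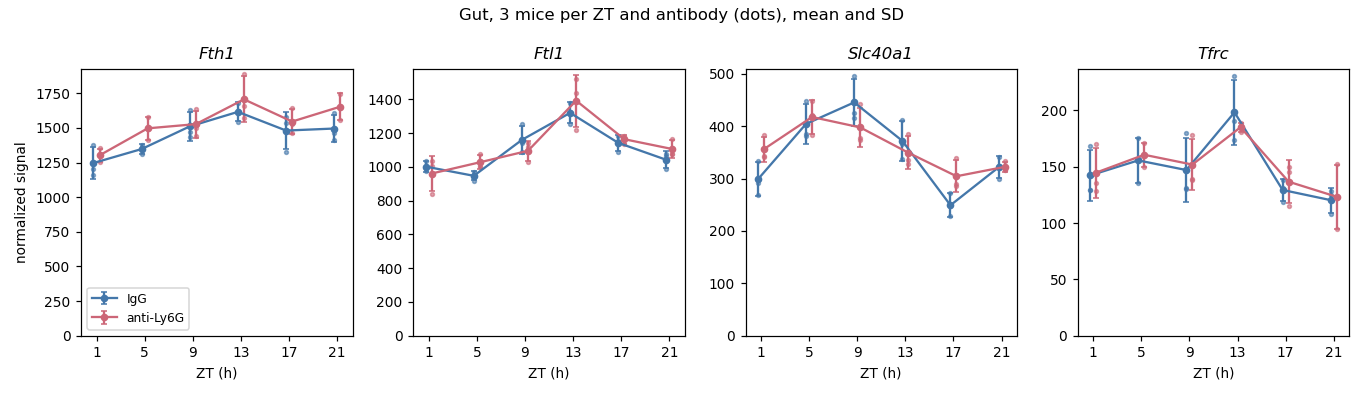
Normalized signal in gut by ZT (h) for Fth1, Ftl1, Slc40a1 and Tfrc; dots are single mice (3 per ZT and antibody), and points with bars are the mean and SD. Ftl1 rises to 1320 in IgG and 1392 in anti-Ly6G at ZT 13, while Slc40a1 is lowest at ZT 17 in both.

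In liver, the uptake genes peaked at night in both groups and the exporter peaked by day in IgG. Tfrc peaked in the night at 16.7 ± 0.79 h (SE) in IgG with a fold of 2.32 (adjusted p = 8.04e-04 in limma) and at 14.8 ± 0.57 h in anti-Ly6G with a fold of 3.22 (1.39e-05). Slc11a2 peaked at 19.4 ± 0.57 h (fold 1.87, adjusted p = 1.03e-05) and 18.6 ± 0.77 h (fold 1.58, 9.09e-04). Slc40a1 peaked by day, at 7.83 ± 0.83 h in IgG (fold 1.68, adjusted p = 0.00136), and at 7.53 ± 1.67 h in anti-Ly6G without passing the test (fold 1.29, 0.171). It did pass there when ZT was a factor (0.022) or ZT 21 was left out (0.00974). Rhythms were called for 3 of 8 genes in each group, beside 42.9% of all genes in IgG and 34.7% in anti-Ly6G.

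Tfrc in IgG was at 15.5 ± 3.67 (SD, n = 3) at ZT 5 and 49.5 ± 21.4 (n = 3) at ZT 13, where single mice ran from 33.2 to 73.7. In anti-Ly6G it was at 17.7 ± 0.620 at ZT 5 and 62.5 ± 13.5 at ZT 13, and the lowest mouse at ZT 13 (46.8) lay above the highest at ZT 5 (18.3). The IgG rhythm leaned on 1 time: without ZT 5 its adjusted p was 0.144. Slc11a2, the endosomal transporter, was at 23.4 ± 3.08 at ZT 5 and 47.0 ± 3.68 at ZT 17 in IgG, and at 27.2 ± 0.888 and 47.3 ± 2.10 in anti-Ly6G, with no overlap between those times. Slc40a1 was at 186 ± 19.7 at ZT 5 and 114 ± 14.6 at ZT 17 in IgG, and at 193 ± 27.98 and 125 ± 28.1 in anti-Ly6G.

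Hamp varied widely between mice of the same hour. In IgG its means were 261 ± 69.8 (SD, n = 3) at ZT 1, 660.5 ± 163 at ZT 5, 349 ± 133 at ZT 9, 576 ± 271 at ZT 13, 721 ± 88.5 at ZT 17 and 498 ± 209 at ZT 21. In anti-Ly6G they were 397 ± 161, 515 ± 163, 524 ± 106, 729 ± 301, 653 ± 24.7 and 540 ± 203 at the same times. Neither group passed the 24 h wave (adjusted p = 0.233 and 0.215 in limma). The IgG group, with a high value at both ZT 5 and ZT 17, passed with ZT as a factor (0.01) and also as a wave once ZT 5 was left out (0.0022). Hamp2 passed in anti-Ly6G (peak 14.6 ± 1.21 h, SE, adjusted p = 0.039) and not in IgG (0.917), and was at 78.7 ± 41.8 (SD, n = 3) at ZT 5 in IgG.

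Hfe peaked at 19.1 ± 1.10 h in anti-Ly6G (fold 1.21, adjusted p = 0.0204 in limma) and at 19.6 ± 1.498 h in IgG without passing (fold 1.15, 0.0974). Its amplitude was small, from 33.5 ± 0.606 at ZT 9 to 43.8 ± 2.64 at ZT 21 (SD, n = 3) in anti-Ly6G, and the call was lost without ZT 9 (0.243), ZT 17 (0.0999), ZT 21 (0.162) or anti-Ly6G replicate 16 (0.0505). Fth1, Ftl1 and Trf passed the wave in neither group (Ftl1 in IgG passed with ZT as a factor, at 0.0319, and without ZT 1, at 0.0406, or ZT 21, at 0.0267), and Cybrd1, at 0.471 ± 0.301 and 0.300 ± 0.181 (SD, n = 18 each), was under the level needed for a test.

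A rhythm called in one group and not in the other is no difference between them, and none was found: 0 of 8 genes differed in rhythm between the antibodies, beside 0.00800% of all genes. The nearest was Tfrc, with an amplitude higher by 0.24 on the log2 scale and a peak 1.90 ± 0.97 h (SE) earlier in anti-Ly6G (p = 0.0703 before and 0.567 after adjustment). Mean levels did not pass for any of the 8 genes in limma (0 also at an unadjusted p under 0.05; with voom weights 1 had an unadjusted p under 0.05 and none passed), beside 1.40% of all genes. Hamp was at 189, 505 and 883 (lowest, median, highest) in IgG and 229, 562 and 1073 in anti-Ly6G, a difference of 0.20 ± 0.15 with a 95% interval of -0.10 to 0.50. Slc40a1 differed by 0.15 ± 0.073 (p = 0.0507 before and 0.371 after adjustment in limma). Its 95% interval of 0.005 to 0.290 is a normal approximation, slightly narrower than the limma test implies. The 15 macrophage genes, a cell type rich in ferroportin, had a median of 0.29 with 0 past the threshold, and summed to between 196 and 486 in IgG and 288 and 617 in anti-Ly6G. In rhythm, 7 of the 15 passed in IgG (median amplitude 0.35 on the log2 scale) and 0 in anti-Ly6G (0.13). Over all genes 42.9% passed in IgG and 34.7% in anti-Ly6G, so the IgG count is near the background. Of the 15, 0 differed in rhythm between the antibodies, and Slc40a1 did not differ either. Their part in the Slc40a1 rhythm was not tested.

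Around them, 22 of 38 pathway genes were rhythmic in IgG liver and 14 of 38 in anti-Ly6G, beside 42.9% and 34.7% of all genes. The 4 smallest p-values in IgG were those of Ireb2, which encodes iron regulatory protein 2 (peak 3.32 ± 0.50 h, SE), Steap3 (22.2 ± 0.53 h, fold 1.91), Aco1, which encodes iron regulatory protein 1 (16.4 ± 0.60 h), and Pcbp2 (7.41 ± 0.60 h). In anti-Ly6G they were those of Steap3 (21.1 ± 0.49 h, fold 2.02), Pcbp2 (9.07 ± 0.54 h), Lrp1 (3.21 ± 0.63 h) and Aco1 (16.1 ± 0.69 h). In level, 2 of 38 pathway genes changed and both rose: Lcn2 by 1.48 ± 0.36 (adjusted p = 0.0271 in limma), at 0.724, 1.86 and 35.6 (lowest, median, highest) in IgG and 2.48, 6.66 and 166 in anti-Ly6G, and the ferroxidase Cp by 0.16 ± 0.042 (0.0473), each in 15 of 18 libraries.

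**Figure D4:**
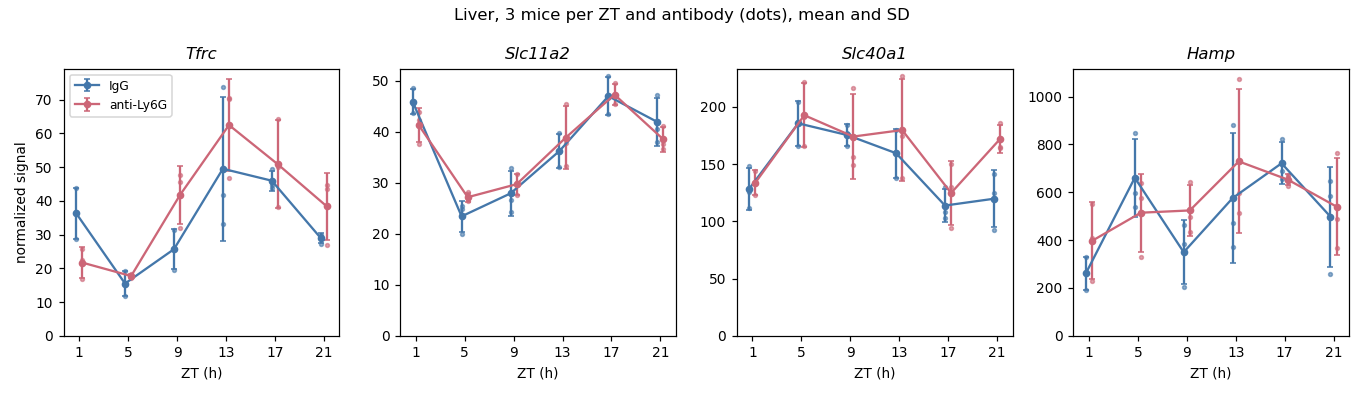
Normalized signal in liver by ZT (h) for Tfrc, Slc11a2, Slc40a1 and Hamp; dots are single mice (3 per ZT and antibody), and points with bars are the mean and SD. Tfrc is lowest at ZT 5 (15.5 in IgG, 17.7 in anti-Ly6G), where Slc40a1 is highest (186 and 193), and the Hamp bars overlap across most times.

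In lung, the Tfrc rhythm was called in IgG by the labels and in both groups by title number, and its timing depends on which sample order is right. The labels of the 36 lung libraries do not follow the order of title numbers that bone marrow, gut and liver share (IgG then anti-Ly6G within each ZT): by treatment 8 of 36 libraries match that order, and by treatment and ZT together 0. By title number, Arntl peaked at 21.7 ± 0.24 (SE) and 20.3 ± 0.25 h, and 5 of 8 neutrophil genes fell with anti-Ly6G, while by the labels 0 of 8 did. Which order is correct was not tested further.

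By the labels, Tfrc peaked at 12.3 ± 0.54 h in IgG (fold 1.67, adjusted p = 6.00e-05 in limma), from 66.5 ± 4.24 (SD, n = 3) at ZT 1 to 122 ± 23.6 at ZT 13, and did not pass in anti-Ly6G (0.0535). By title number it peaked at 16.3 ± 0.89 h in IgG (fold 1.29, adjusted p = 0.00634) and 16.7 ± 0.40 h in anti-Ly6G (fold 1.77, 8.11e-08). Trf was also called in IgG under both orders (adjusted p = 0.0135 by the labels and 0.0371 by title number), and Cybrd1 in IgG only by the labels (0.0044, and 0.0727 by title number). Rhythms were called for 3 of 9 genes in IgG and 1 of 9, Hfe, in anti-Ly6G by the labels, beside 11.2% and 12.7% of all genes. By title number they were called for 5 of 9 in IgG (Tfrc, Trf, Slc40a1, Hamp and Hfe) and 3 of 9 in anti-Ly6G (Tfrc, Trf and Cybrd1), beside 23.6% and 13.2%. By the labels, Trf was lost without ZT 13 (0.105), Cybrd1 without ZT 9 (0.0772), and Hfe without ZT 1, 9 or 21 (0.123 to 0.329) or any 1 of anti-Ly6G replicates 3, 9, 16 and 17 (0.0596 to 0.0817). Tfrc in anti-Ly6G passed without ZT 13 (0.0169) or ZT 17 (0.00975) or any 1 of IgG replicates 2 and 11 and anti-Ly6G replicates 6, 13 and 15 (0.00706 to 0.0469), and Slc11a2 in IgG without IgG replicate 4 (0.0478).

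Under neither order did a gene of the 9 differ in rhythm between the antibodies (0.0511% of all genes by the labels, 0.00639% by title number) or in mean level with all libraries in the fit. Without ZT 17, Tfrc differed in rhythm by the labels (0.0286). For level, 0 of 9 passed by the labels in limma (0 at an unadjusted p under 0.05, and likewise with voom weights), beside 0 of all genes, and 0 of 9 by title number (1 at an unadjusted p under 0.05), beside 6.88% of all genes. Tfrc was at 61.7, 94.6 and 149 in IgG and 75.2, 95.9 and 132 in anti-Ly6G by the labels, with complete overlap. Hamp, at 0.855, 3.42 and 6.29 in IgG and 1.42, 4.895 and 9.00 in anti-Ly6G, differed by 0.26 by the labels and by -0.24 by title number, so its direction turns with the order. In the pathway list, 0 of 37 genes changed by the labels, and 2 rose by title number, Cp (0.20 ± 0.048) and Hp (0.15 ± 0.041). The 4 smallest rhythm p-values by the labels were those of Cp, Aco1, Id1 and Bmp2 in IgG and of Cp, Lcn2, Heph and Id1 in anti-Ly6G. By title number they were those of Lcn2, Cp, Bmp2 and Neo1, and of Bmp2, Neo1, Aco1 and Slc46a1.

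In ear skin, iDTR mice given DT had more Fth1 and Tfrc and less of the exporter, the carrier, the reductase and Hfe than mice labelled control. Cybrd1 fell by 0.84 ± 0.098 (log2 ± SE, adjusted p = 2.71e-10 in limma), Trf by 0.59 ± 0.092 (2.42e-07), Slc40a1 by 0.51 ± 0.10 (1.84e-05) and Hfe by 0.415 ± 0.053 (2.54e-09). Fth1 rose by 0.39 ± 0.054 (1.57e-08) and Tfrc by 0.32 ± 0.053 (1.12e-06). That is 6 of 8 genes called, 4 lower and 2 higher, in a comparison in which 63.0% of all genes were called, 32.4% lower and 30.6% higher, so the count is near the background.

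Cybrd1, a low gene in skin, was at 2.35, 3.601 and 4.92 (lowest, median, highest) in control and 0.710, 1.78 and 2.65 in iDTR, lower in 16 of 16 mice than the control mouse of the same ZT. Only the top of the iDTR range overlapped the control range. Trf was at 295, 403 and 517 in control and 179, 255 and 343 in iDTR, and Slc40a1 at 36.2, 48.7 and 75.3 against 21.4, 35.9 and 53.0, lower in 14 and 15 of 16 mice respectively. Hfe was at 19.7, 21.3 and 25.4 in control and 14.1, 15.3 and 21.6 in iDTR.

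Fth1 was at 705, 764 and 840 in control and 791, 991 and 1368 in iDTR, higher in 15 of 16 mice, and its SD rose from 38.5 to 189 (n = 16 each). Tfrc was at 82.3, 109 and 122 in control and 95.4, 133 and 171 in iDTR, higher in 14 of 16. Ftl1 (-0.05 ± 0.056, 95% interval -0.16 to 0.06, adjusted p = 0.412 in limma) and Slc11a2 (-0.01 ± 0.066, interval -0.14 to 0.12, adjusted p = 0.932) did not pass, so the ferritin chains did not both move.

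In iDTR skin Fth1 and Tfrc also varied with the hour, at nearly opposite times. Tfrc peaked at 21.5 ± 0.52 h (SE, fold 1.57, adjusted p = 1.02e-04 in limma): it was between 150.3 and 171 in all 7 mice of ZT 18 to 24 and of ZT 1 and 3, and between 95.4 and 137 in the 9 mice of ZT 4 to 16. Fth1 peaked at 11.9 ± 0.93 h (fold 1.34, adjusted p = 0.0141), with its highest values at ZT 13 (1368) and ZT 16 (1354) and its lowest at ZT 1 (791). The Fth1 call was lost without ZT 1 (0.0629), ZT 13 (0.0705) or ZT 22 (0.0512), and without iDTR replicate 7 (0.0531) or 14 (0.0619). Ftl1 (0.0992) passed without ZT 4 (0.00985) or ZT 15 (0.0492), and without iDTR replicate 1 (0.014) or 15 (0.0452). These are 2 of 8 genes, beside 10.9% of all genes rhythmic in iDTR. In control 0 of 8 passed in limma (1 at an unadjusted p under 0.05, also with voom weights), beside 0.383%, and in Bmal1-flox 0 of 8 (0 at an unadjusted p under 0.05, also with voom weights), beside 0.326%.

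The difference in rhythm itself did not pass for any gene (0 of 8 in limma; 2 at an unadjusted p under 0.05, also with voom weights), beside 0.144% of all genes. Tfrc came nearest, with a larger amplitude by 0.21 on the log2 scale and a peak 3.92 ± 1.63 h (SE) earlier than in control (adjusted p = 0.0672). It crossed the threshold without ZT 3 (0.033) and without any 1 of iDTR replicates 1, 3, 8, 12 and 14 (between 0.0257 and 0.0464).

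Markers of other skin cells were also called in this comparison, beside 63.0% of all genes, 32.4% lower and 30.6% higher. All 6 adipocyte genes fell (median -0.97, summed signal 319 to 453 in control and 119 to 390 in iDTR), all 6 skeletal muscle genes fell (median -0.50, 2407 to 6481 and 1611 to 3902) and all 5 neutrophil genes tested rose (median 0.72, 25.8 to 57.3 and 43.3 to 131). Of 10 macrophage genes 4 fell and 1 rose, and of 6 keratinocyte genes 3 rose and 1 fell, both counts near that background. The part of these cells in the changes of the iron genes was not tested.

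The iron pathway moved in both directions in iDTR skin, with 15 of 38 genes higher and 14 lower, beside 30.6% and 32.4% of all genes. The 6 largest were Lcn2 (2.55 ± 0.145, from 3.89 to 28.8), Hp (1.57 ± 0.16, from 108 to 353), Aco1 (fell by 1.07 ± 0.042, from 93.2 to 43.8), the ferroxidase Heph, which works with ferroportin (fell by 1.01 ± 0.064, from 29.03 to 14.035), the iron and zinc transporter Slc39a14 (0.98 ± 0.11, from 29.2 to 61.4) and the hormone erythroferrone, Erfe (0.76 ± 0.097, from 0.679 to 1.825). Lcn2, Aco1, Heph and Slc39a14 moved in 16 of 16 mice. Of the 38, 7 were rhythmic in iDTR, beside 10.9% of all genes. The smallest p-values were those of the ferritin receptor Scara5 (peak 10.8 ± 0.79 h, SE, fold 2.32), Steap2, Hmox1 and Steap4.

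In Bmal1-flox skin, 2 of 8 genes were called against libraries labelled control, which the iDTR comparison also uses. By their labels the control mice were given DT and the Bmal1-flox mice were not, so genotype and DT cannot be told apart here. Cybrd1 fell by 0.58 ± 0.10 (adjusted p = 6.44e-05 in limma), at 1.08, 1.86 and 3.43 (lowest, median, highest) against 2.35, 3.601 and 4.92, lower in 13 of 15 mice. Slc40a1 rose by 0.34 ± 0.10 (adjusted p = 0.036), at 52.2, 60.0 and 88.0 against 36.2, 48.7 and 75.3, higher in 14 of 15 mice, whereas the iDTR value was lower than control. Over all genes 5.63% were called, 3.21% lower and 2.41% higher.

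The Slc40a1 call was close to the threshold: it was lost in 20 of the 63 analyses that left out 1 mouse or 1 ZT, with the adjusted p reaching 0.0945 without ZT 12. The others were ZT 1, 3, 7, 9, 19, 22 and 24, Bmal1-flox replicates 1, 3, 6, 8, 10 and 11, and control replicates 3, 5, 7, 10, 12 and 13. Ftl1, 439 ± 43.9 in control and 490 ± 50.05 in Bmal1-flox (SD, n = 16 and 15), did not pass (adjusted p = 0.0863), nor did Fth1 (0.42), Slc11a2 (0.487), Trf (0.646), Tfrc (0.709) or Hfe (0.874). No gene differed in rhythm (0 of 8 in limma, 0 at an unadjusted p under 0.05, and likewise with voom weights), and 0 of all genes did. Of 38 pathway genes, Hmox1 rose by 0.35 ± 0.0805, from 54.4 to 69.3, and Aco1 fell by 0.14 ± 0.042, from 93.2 to 84.4. Of 7 erythroid genes 2 rose (median 1.09), with a summed signal of 20.4 to 399 in control and 35.7 to 761 in Bmal1-flox; their part in the values of Slc40a1 and Hmox1 was not tested. Arntl itself was at 39.6 ± 12.3 in control and 40.6 ± 12.5 in Bmal1-flox (SD), in whole skin.

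**Figure D5:**
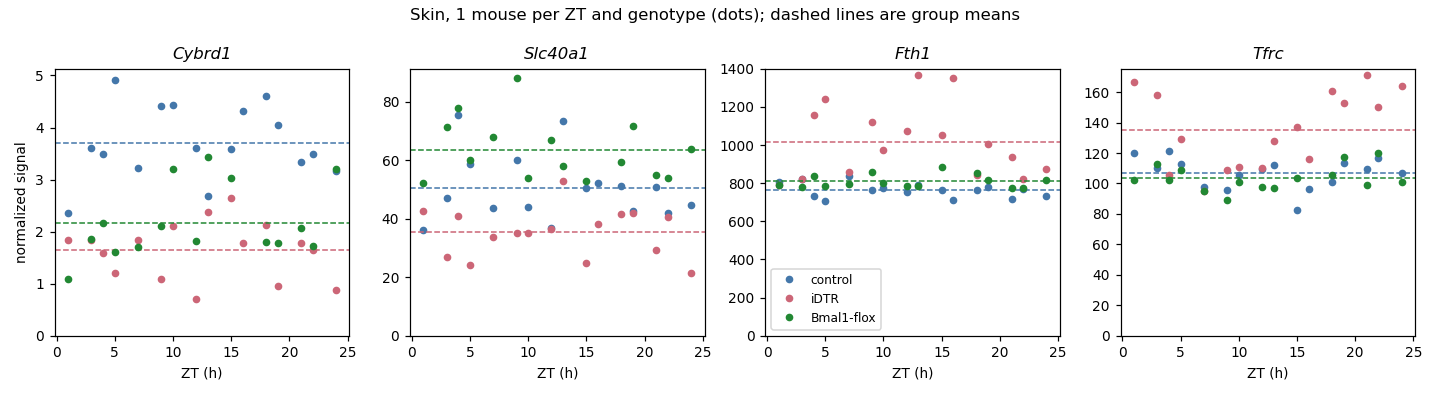
Normalized signal in ear skin by ZT (h) for Cybrd1, Slc40a1, Fth1 and Tfrc, 1 mouse per point, with group means as dashed lines. Cybrd1 lies below most control points in both other genotypes, Fth1 spreads up to 1368 in iDTR, and iDTR Tfrc is between 150.3 and 171 from ZT 18 to 24 and at ZT 1 and 3.

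The genes most like a member across the libraries of a tissue were found by Pearson's r of log2 signal plus 1. Libraries share antibody, ZT and cell makeup, so r is a description. In bone marrow, Tfrc was followed most closely by March8 (r = 0.888, n = 36), whose product is a ubiquitin ligase, by Epb42 (0.887), a protein of the red cell membrane, and by Dnajb4 (0.887). In liver it was followed by Prelid3b (0.852), Pus7 (0.827) and Rrp12 (0.815). Genes close to Hamp in liver included Hspb8 (0.695) and Sult1d1 (0.66), and Slc40a1 in liver had Alkbh5 (0.771), Nup50 (0.767) and Gxylt1 (0.756). In gut, Slc11a2 had Orai1 (0.739), Pank2 (0.737) and Fbxo42 (0.717), and Cybrd1 had Med13 (0.659), Mbnl1 (0.623) and Son (0.613). In skin, Trf went with Pck1 (0.863, n = 47), Rbp4 (0.848) and Fads2 (0.825).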

How the data were processed

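RNA was sequenced from 5 mouse tissues. Per the labels' protocols, libraries were made from 200 ng of RNA and read as 50 nt single reads; the submitters' processing notes name mm10, CASAVA 1.8, cutadapt 1.7.1, RSEM 1.7.1 and limma 3.46, and the extract protocol names RSEM 1.2.20, Kallisto 0.43.1 and Ensembl build 84. The normalization is not given in the sources used here. The deposited values are a normalized signal, 1 table per tissue, that behaved like RSEM counts plus 0.5 on a per-million scale, so a gene without a read is above 0. Of the counts recovered from them, 29.7% (lung) to 44.5% (liver) were whole to within 1e-06 of a read, so the main tests used no count model. The alternative with voom weights was fitted to these recovered counts.

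Groups came from the labels. log2(value + 1) of genes with a mean of at least 1 was fitted in limma 3.58.1 (R 4.3.3) with a mean-variance trend, with two-sided tests; Benjamini-Hochberg adjusted p-values over the genes of each table were called under 0.05. Level differences were adjusted for ZT as a factor (a 24 h wave in skin), and rhythms were F tests of a cosine and a sine in each group. Intervals are normal approximations, slightly narrower than the limma tests imply. The fits were tested on simulated data. P-values measure the spread between mice.

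The members and lists were chosen with earlier results of these data known. Named genes were all 9 members, the 6 largest called pathway genes per comparison (of 44 listed), the 4 smallest pathway rhythm p-values per group, and the 3 genes most correlated with each of 7 member and tissue pairs, of which 1 gene is not reported here. Alternatives changed the pseudocount, filter, scaling, weights, time term, libraries and lung order.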

Additional observations from a re-analysis of the deposited data

How the results depend on the processing

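Alternatives were pseudocounts of 0.1 and 5, no filter or a mean of 4, quantile normalization, voom weights, other time terms and leaving out each library or ZT. Leaving out gut anti-Ly6G replicates 1 and 6 together, and ZT as a factor with the lung title order, were added after seeing the data. Of 174 counts of called genes under settings other than leave-one-out, 167 stayed within 1.5 times the reported count. With ZT as a factor, rhythm counts became 2 (from 0) in bone marrow anti-Ly6G, 5 (from 3) in liver IgG and 0 (from 1) in lung anti-Ly6G. By lung title number, counts became 5 (from 3) in IgG and 3 (from 1) in anti-Ly6G, or 2 there with ZT as a factor as well. A filter at a mean of 4 gave 1 called gene (from 2) in Bmal1-flox skin, because Cybrd1 was no longer tested. Leaving out 1 library or ZT gave 2 to 5 called genes in bone marrow and 1 to 2 in Bmal1-flox skin. Rhythm counts ranged from 0 to 1 in bone marrow anti-Ly6G, 2 to 4 in gut IgG, 1 to 4 in gut anti-Ly6G, 3 to 4 in liver IgG, 2 to 3 in liver anti-Ly6G, 2 to 4 in lung IgG, 0 to 2 in lung anti-Ly6G and 1 to 3 in iDTR skin, and differential rhythm counts from 0 to 1 in lung and iDTR skin. Except where stated, the cause was not tested. With a replicate block, 0 genes were called in gut, 6 in iDTR skin and 2 in Bmal1-flox skin, as without it. Same-numbered gut libraries correlated between -0.221 and 0.184 (18 pairs, 6 over 0.1). No comparison with differently numbered pairs was made, so whether they share more than a number was not tested. Cybrd1 in liver and Hamp in gut were below the filter and were not tested.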
